A study of Vitis vinifera with 27 samples.

Results

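Latent buds of node 5 of grapevine cv. Merlot were compared between BBCH77 and BBCH63 in 6 of the 27 RNA-Seq libraries of the study, chosen by the stage and node given in their labels. There were 3 replicates at BBCH77, the phase of cluster closure, which the design text places at floral transition, and 3 at BBCH63, the phase of anthesis, which it places at floral induction. The 6 libraries of node 2 at BBCH77 and BBCH63 were used to find which of these changes were missing in basal buds. Node 5 is an intermediate and node 2 a basal position on the shoot. All groups came from vineyard-grown vines of this cultivar on the rootstock Kober 5BB, no treatment is given in the labels, and each replicate was a separate pool of excised buds.

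A latent bud of the grapevine forms in the leaf axil of the current shoot and holds the shoot and the inflorescences of the next season. Its meristem first produces leaf primordia and then uncommitted primordia, which become inflorescences or tendrils, and this step takes place in summer while the shoot bears flowers and then berries. Buds later enter dormancy, and node position along the cane is known to go with the number of inflorescences they carry. Whole buds were sequenced, so fewer cells of a type and less RNA per cell cannot be told apart in any of the values.

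The 12 libraries of nodes 5 and 2 held between 36504528 and 53307172 counts on genes, and replicates within groups differed by a root mean square of 0.32 to 0.52 on the log2 CPM scale, with 1 exception. Replicate 3 of BBCH77 node 2 differed by 1.01 and 0.82 from the other replicates of its group, but by 0.39 from the mean of BBCH77 node 5. What it holds was not tested, and the main counts of the comparison with node 2 are therefore also given without it. The values of replicate 2 of BBCH63 node 2 were identical to those of replicate 3 of BBCH90 node 10, which is 1 of the 3 node 10 libraries that the study left out and that stayed out of the fit here. With these counts, the replicates of BBCH63 node 2 differed from each other by 0.323 to 0.516. Which label these counts belong to was not tested. Without replicate 2 of BBCH63 node 2, node 5 had 1209 rises and 707 falls. Of these, 70 and 59 lay within 2-fold at node 2 by the measure used below, and 519 and 274 were shared with node 2. The 2 genes used to check the tissue were present at node 5, with 8.98 to 11.6 CPM at BBCH77 and 5.24 to 7.26 CPM at BBCH63 for VvVFL, and 3.04 to 4.67 CPM and 5.76 to 9.88 CPM for VvTFL1A, both known from meristems. Markers of green stem or leaf tissue were not annotated in the sources used here.

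At BBCH77 relative to BBCH63 the buds of node 5 upregulated 1234 genes, which is 5.37% of the 22999 genes tested, and downregulated 747 genes (3.25%). Together they made up 8.61% of the genes tested. A DEG was a gene that changed 2-fold or more and passed edgeR's quasi-likelihood test at a Benjamini-Hochberg adjusted p under 0.05. The rises were more often large. At least a 4-fold change was found for 462 of the upregulated and 143 of the downregulated genes, and at least an 8-fold change for 199 and 33. The median log2 fold change was 1.7 among the upregulated and -1.43 among the downregulated genes, against 0.02 over all genes tested.

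Of the counts of a node 5 library, the upregulated genes took 5.51% to 7.07% at BBCH77 and 1.87% to 2.05% at BBCH63. The downregulated genes took 1.85% to 2.11% at BBCH77 and 4.24% to 5.58% at BBCH63. All 3 libraries of BBCH77 lay above all 3 of BBCH63 for 1221 of the upregulated genes, and below them for 728 of the downregulated genes. Among all genes tested the shares without overlap were 21% and 20.9%. The number of downregulated genes depended on BBCH77 node 5 replicate 3, and without it 938 genes rose and 493 fell. With all 27 libraries in the fit, 435 rose and 155 fell. That fit puts back the 3 libraries that the study left out as outliers. It also holds the identical counts of BBCH63 node 2 and BBCH90 node 10 under both labels.

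The 10 largest rises, all with at least 1 CPM at BBCH77 and libraries that did not overlap, were also DEGs with a rise at node 2. Their products are not given in the sources used here. Vitvi11g00948 had 12.01, 248 and 3.59 CPM in the BBCH77 libraries and no count in any BBCH63 library of node 5. Replicate 2 stood far above the other BBCH77 libraries. Against a floor of 3 counts per library, which is 0.0757 CPM, the mean at BBCH77 was at least 1160-fold higher, and its lowest library at least 47.5-fold higher. Vitvi02g01438 had 38.6, 218 and 15.8 CPM at BBCH77 against 0.642, 0.353 and 0.0409 CPM at BBCH63. All BBCH77 libraries were higher, and the log2 fold change was 8.04 (SE 1.43, adjusted p = 0.00091). It was 6.3 without BBCH77 replicate 2, the library that in 5 of these 10 genes was over 3 times as high as the next one.

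Of the 10 largest falls, 3 were DEGs with a fall at node 2. By the measure used below, 0 of the 10 lay within 2-fold at node 2. With all libraries of the fit, 0 genes with a lower change at node 5 passed the test of the difference between the nodes. These falls are therefore not shown to be particular to node 5. Vitvi03g00752 had 16.4, 4.63 and 12.8 CPM at BBCH77 against 282, 343 and 650.5 CPM at BBCH63. The groups were far apart, with a log2 fold change of -5.24 (SE 0.61, adjusted p = 2.76e-05). In node 2 buds this gene had 46.7, 33.8 and 15.9 CPM at BBCH77 and 37.7, 58.7 and 75.6 CPM at BBCH63, levels that overlapped (-0.84, SE 0.52, adjusted p = 0.27). Vitvi05g04535 had 0.246, 0.352 and 0.57 CPM at BBCH77 and 1.84, 4.49 and 14.2 CPM at BBCH63 of node 5. Every BBCH77 library was lower, with a log2 fold change of -4.11 (SE 0.75, adjusted p = 0.0015) at node 5 and -0.88 (SE 0.77, adjusted p = 0.45) at node 2.

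Of the 7 flowering genes named in the study, 1 was a DEG at node 5, VvCO, where 8.61% of all genes tested were DEGs, so that nothing particular to these genes is read from the count. CONSTANS, its Arabidopsis homolog, promotes flowering in response to day length. VvCO (Vitvi14g01296) had 26.2, 30.0 and 26.8 CPM at BBCH77 against 50.2, 72.5 and 45.5 CPM at BBCH63. The BBCH77 libraries were all lower and close to each other, and the log2 fold change was -1.02 (SE 0.20, adjusted p = 0.0016). It lay just past the 2-fold limit and was -0.78 without BBCH63 replicate 2, -0.97 without BBCH77 replicate 1 and -0.98 without BBCH77 replicate 3, so that the call was lost in each of these cases. At node 2 VvCO had 18.7, 22.5 and 26.9 CPM at BBCH77 and 23.7, 30.7 and 34.4 CPM at BBCH63. Those groups overlapped, and the change of -0.38 (95% interval -0.80 to 0.04) lay within 2-fold. The difference between the nodes was -0.63 (SE 0.28) and did not pass its test (adjusted p = 0.44).

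Repressors of flowering in Arabidopsis are the homologs of VvFLC and VvTFL1A, the second of which keeps the shoot meristem indeterminate. VvFLC (Vitvi01g01673) had 74.2, 76.8 and 78.1 CPM at BBCH77 against 113, 178 and 162 CPM at BBCH63 of node 5. The groups were well separated, but the log2 fold change of -0.98 (SE 0.14, adjusted p = 0.00011) stayed just under the 2-fold limit, which DESeq2 passed with -1.01. The change of VvFLC at node 2 was -0.64 (SE 0.14, adjusted p = 0.0032), also under 2-fold. VvTFL1A (Vitvi06g01473) had 4.67, 3.04 and 3.49 CPM at BBCH77 and 5.76, 7.11 and 9.88 CPM at BBCH63. All BBCH77 libraries were lower, with a log2 fold change of -1.02 (SE 0.42) that did not pass the test (adjusted p = 0.086). It passed without BBCH77 node 2 replicate 3 (adjusted p = 0.008), a library in which VvTFL1A had 1.29 CPM against 5.89 and 7.56 CPM in the other BBCH77 libraries of node 2.

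VvVFL (Vitvi17g00021), homolog of the floral meristem identity gene LEAFY of Arabidopsis, was the only flowering gene of the list with a positive change at node 5. It had 11.6, 10.9 and 8.98 CPM at BBCH77 and 5.24, 7.26 and 6.51 CPM at BBCH63. The BBCH77 libraries were all higher, by 0.73 on the log2 scale (SE 0.20, adjusted p = 0.017), which is under 2-fold. At node 2 the difference was 0.45 (SE 0.21, adjusted p = 0.13). VvSOC1 (Vitvi15g00774), homolog of a floral integrator, had 89.0, 69.6 and 83.7 CPM at BBCH77 and 84.7, 117 and 113 CPM at BBCH63, groups that overlapped (-0.37, SE 0.14, adjusted p = 0.064). VvELF4 (Vitvi09g00117), whose Arabidopsis homolog belongs to the circadian clock, had 23.9 to 33.5 CPM at BBCH77 and 33.5 to 47.5 CPM at BBCH63, ranges that met (-0.40, SE 0.18, adjusted p = 0.12). VvCOL1 (Vitvi04g00665), a CONSTANS-like gene, overlapped between the stages, with 148 to 174 CPM and 149 to 193 CPM (-0.10, SE 0.13, adjusted p = 0.62).

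**Figure D1:**
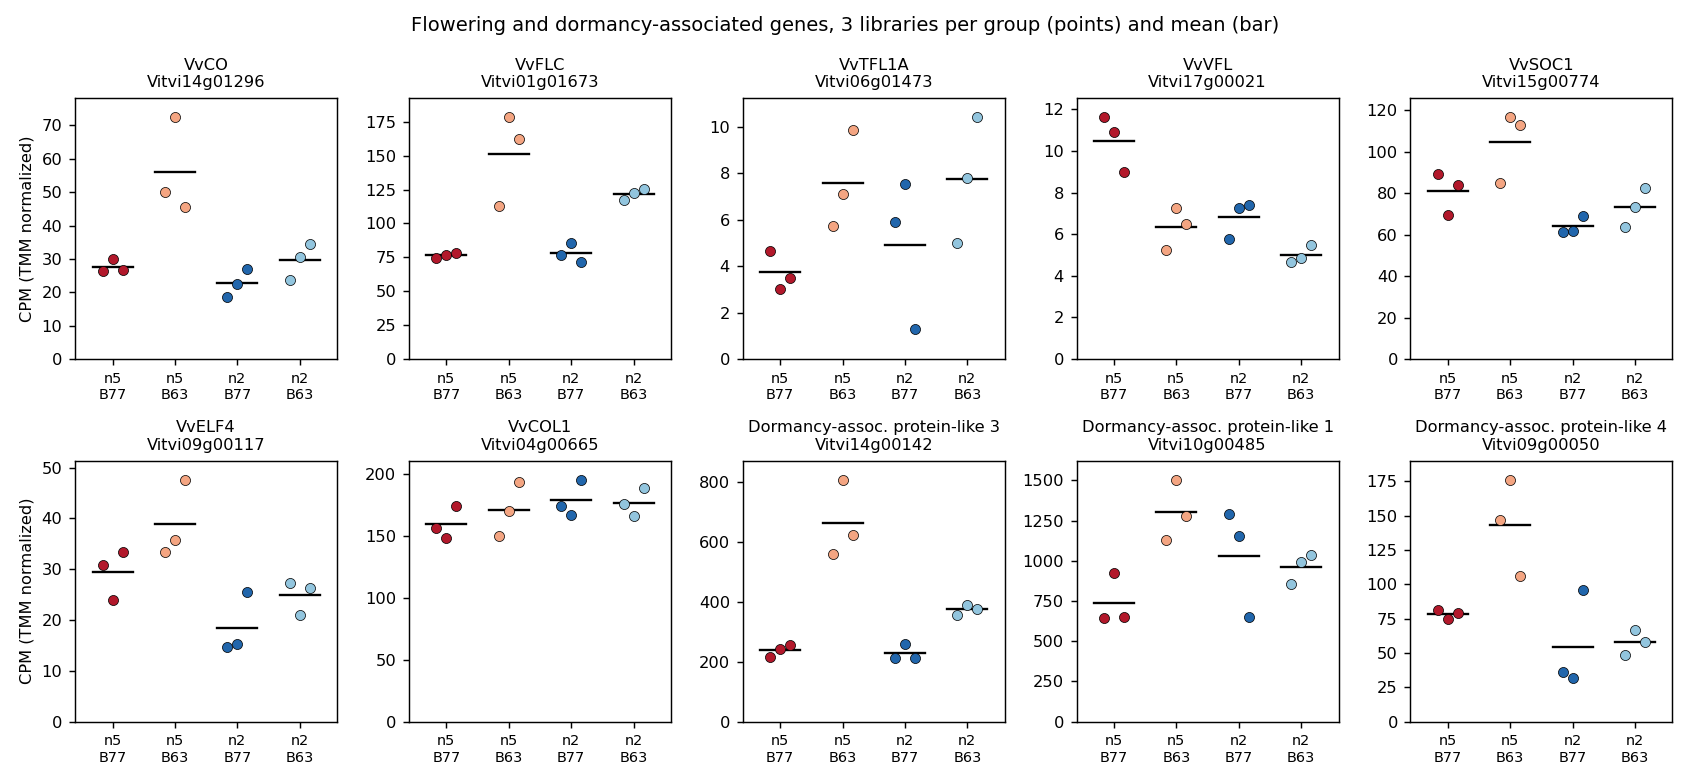
CPM after TMM normalization (y axis, from 0) of the flowering and dormancy-associated genes in each library of node 5 (n5) and node 2 (n2) at BBCH77 (B77) and BBCH63 (B63), with points for the 3 replicates and a bar for their mean. At node 5 the BBCH77 points of VvCO, VvFLC, VvTFL1A and each dormancy-associated gene all lie below the BBCH63 points. The BBCH77 points of VvVFL lie above those of BBCH63.

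The 3 dormancy-associated genes named in the study were all lower at BBCH77 in node 5, and 1 of them was a DEG. Beside 8.61% of all genes tested, 3 genes are too few to read this count. It was 2 without BBCH63 node 5 replicate 3 or without BBCH77 node 5 replicate 2. Genes of this family are known from dormant buds of other plants. Dormancy-associated protein-like 3 (Vitvi14g00142) had 217, 244 and 256 CPM at BBCH77 against 561, 808 and 623 CPM at BBCH63. The BBCH77 libraries lay well below all BBCH63 libraries, with a log2 fold change of -1.47 (SE 0.19, adjusted p = 5.26e-05). Its levels at node 2 were 212, 258 and 214 CPM at BBCH77 and 358, 389 and 377 CPM at BBCH63, a change of -0.72 (SE 0.19, adjusted p = 0.011) that stayed under 2-fold. The nodes overlapped at BBCH77, whereas at BBCH63 all libraries of node 5 were higher.

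Dormancy-associated protein-like 1 (Vitvi10g00485) had 642, 923 and 648 CPM at BBCH77 of node 5 and 1127, 1502 and 1278 CPM at BBCH63. The groups did not overlap, and the log2 fold change was -0.82 (SE 0.23, adjusted p = 0.016), under 2-fold. Node 2 buds had 1289, 1154 and 653 CPM at BBCH77 and 854, 992 and 1034 CPM at BBCH63. Replicate 3 of BBCH77 node 2 was again the one at the level of node 5, and the change at node 2 was 0.10 (SE 0.23, adjusted p = 0.79). The difference between the nodes, -0.92 (SE 0.32), did not pass the test with that library (adjusted p = 0.30) and passed without it (-1.16, adjusted p = 0.026).

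Dormancy-associated protein-like 4 (Vitvi09g00050) had 81.3, 74.7 and 79.1 CPM at BBCH77 of node 5 against 147, 176 and 106 CPM at BBCH63. All BBCH77 libraries were lower, and the log2 fold change of -0.87 (SE 0.31) did not pass the test (adjusted p = 0.055). In node 2 buds replicate 3 of BBCH77 had 95.7 CPM against 36.2 and 31.9 CPM in its fellow libraries, and BBCH63 had 48.8, 67.1 and 58.2 CPM. The change at node 2 was -0.09 with this library (adjusted p = 0.87) and -0.77 without it (adjusted p = 0.019).

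The lists by function held 189 genes, 28 of them with no described product. All were tested, and 28 rose and 131 fell at node 5, beside 5.37% and 3.25% of all genes tested. Most of them were picked in these same libraries because they changed between successive stages at every node, 138 as falling and 32 as rising. Their direction is therefore no independent evidence in any list, and nothing is read from these shares. The lists show which functions were among them, and in which members node 5 and node 2 differed. Of the 159 DEGs among them, 148 were DEGs in the same direction at node 2. Of the other 11, VvCO lay within 2-fold at node 2, and 10 were undecided there, with the sign of node 5 and a log2 fold change of 0.72 to 1.49 in size. Among all its genes upregulated from BBCH63 to BBCH77, the study found enriched cell wall, phenylpropanoid, lipid and terpenoid terms at all nodes. It also found lipid and terpenoid terms among the downregulated genes of node 2. The lists therefore do not give the direction of these functions as a whole.

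All 22 genes of cuticle, wax and lipid metabolism, each picked for falling at every node, fell at both nodes. Their median log2 fold change was -1.45 at node 5 and -1.51 at node 2. They cover steps from the desaturation and elongation of fatty acids to the making and export of wax and cutin. A GDSL esterase/lipase (Vitvi12g00213), of a family of lipid hydrolases, had 2.27, 2.55 and 2.21 CPM at BBCH77 against 10.33, 15.4 and 15.3 CPM at BBCH63 of node 5. An ABC transporter G family member 15 (Vitvi06g01290), of a family that exports surface lipids, had 12.03, 19.8 and 14.3 CPM against 53.6, 62.0 and 76.9 CPM. The groups were far apart in both, with log2 fold changes of -2.54 (SE 0.42, adjusted p = 0.00047) and -2.06 (SE 0.43, adjusted p = 0.0025). Other members were 4 stearoyl-[acyl-carrier-protein] 9-desaturases (-1.51 to -1.74), an alcohol-forming fatty acyl-CoA reductase (Vitvi06g01455, -2.04), which makes wax alcohols, and the wax ester synthase type gene O-acyltransferase WSD1 (Vitvi12g00292, -1.26). Without BBCH63 node 5 replicate 3, 17 of the 22 remained DEGs.

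Of 23 cell wall and cytoskeleton genes, 20 picked for falling and 3 for rising at every node, 18 fell and 3 rose at node 5. Early nodulin-like protein 1 (Vitvi12g00290) had 3.87, 3.34 and 2.87 CPM at BBCH77 and 17.1, 14.1 and 17.8 CPM at BBCH63, a fall of 2.28 on the log2 scale (SE 0.42, adjusted p = 0.00095). Proline-rich protein 4-like (Vitvi03g01389) had 28.9, 44.1 and 29.5 CPM against 116, 125 and 221 CPM (-2.17, SE 0.40, adjusted p = 0.0014). Neither overlapped between the stages. Xyloglucan endotransglucosylase/hydrolase 2, which cuts and rejoins wall xyloglucan (Vitvi05g01266, -1.62), the tubulin beta-1 chain of microtubules (Vitvi18g01120, -1.23) and the actin-binding profilin-2 (Vitvi11g00247, -1.32) fell too. The rises were early nodulin-75-like (Vitvi05g01943), with 4.90, 4.90 and 5.77 CPM against 1.13, 1.11 and 1.31 CPM (2.13, SE 0.39, adjusted p = 0.001), UDP-glucuronic acid decarboxylase 2, which makes UDP-xylose for wall polymers (Vitvi05g00009, 1.88), and early nodulin-75 (Vitvi05g01940, 1.31).

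Among 11 flavonoid and phenylpropanoid genes 9 fell and 1 rose at node 5. Chalcone synthase, the entry enzyme of flavonoid synthesis (Vitvi16g04303), had 0.471, 0.873 and 0.725 CPM at BBCH77 against 1.97, 2.32 and 2.93 CPM at BBCH63, a log2 fold change of -1.79 (SE 0.32, adjusted p = 0.0014). It shares a protein record with Vitvi00g04529 (-1.58), so how reads were divided between them is uncertain. A probable cinnamyl alcohol dehydrogenase 1, of the enzymes that make lignin alcohols (Vitvi03g00561), had 4.82, 4.13 and 5.37 CPM against 13.7, 17.8 and 17.4 CPM (-1.77, SE 0.24, adjusted p = 9.59e-05). In both, every BBCH77 library was lower. The rise was that of myb-related protein Myb4 (Vitvi14g04262), a repressor of phenylpropanoid genes in Arabidopsis, which had 20.9, 26.1 and 29.1 CPM at BBCH77 and 4.83, 4.49 and 2.95 CPM at BBCH63 (2.63, SE 0.47, adjusted p = 0.00083). Its levels in node 2 buds were 6.38, 31.1 and 55.3 CPM at BBCH77 and 9.16, 9.26 and 8.49 CPM at BBCH63, with 1 library of BBCH77 below all of BBCH63, and its call there was lost without BBCH77 replicate 3 (1.06, adjusted p = 0.063). All 6 glycosyltransferases, enzymes that attach sugars to small molecules, fell at both nodes (-1.01 to -2.35 at node 5), led by crocetin glucosyltransferase (Vitvi05g01288) and UDP-glycosyltransferase 79B9 (Vitvi19g00177, -1.89).

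Of 9 hormone-related genes 6 fell and 2 rose at node 5. Auxin-binding protein ABP19a (Vitvi09g01515) had 1.496, 1.11 and 1.502 CPM at BBCH77 against 6.93, 9.66 and 14.1 CPM at BBCH63, which is the largest fall of all genes with a given product (-2.90, SE 0.35, adjusted p = 3.27e-05). Genes of the jasmonate pathway moved in both directions. The allene oxide synthase 3 genes, an early step of jasmonate synthesis (Vitvi03g00393, -1.997, and Vitvi03g00391, -1.91), and JAR1, which couples jasmonate to isoleucine (Vitvi12g00480, -1.45), fell. TIFY 10A (Vitvi12g02718), a jasmonate-responsive repressor of the JAZ family, had 3.36, 4.58 and 3.71 CPM at BBCH77 and 0.321, 0.63 and 0.123 CPM at BBCH63, a rise of 3.48 on the log2 scale (SE 0.47, adjusted p = 7.79e-05). The levels of TIFY 10A at node 2 were 4.60, 4.27 and 8.60 CPM at BBCH77 and 1.77, 0.667 and 0.559 CPM at BBCH63 (2.55). The auxin-response repressor IAA9 (Vitvi11g00497) rose to 1.35, 1.16 and 1.28 CPM at BBCH77, against 0.513, 0.656 and 0.552 CPM at BBCH63 (1.14, SE 0.25, adjusted p = 0.0036). The other members that fell were a 1-aminocyclopropane-1-carboxylate oxidase homolog (Vitvi07g00576, -1.69) and auxin-induced protein 6B (Vitvi03g01336, -1.29). ERF020 (Vitvi18g02191), an ethylene-responsive transcription factor, had 0.537 to 2.11 CPM at BBCH77 and 0.908 to 1.497 CPM at BBCH63 at node 5 and did not pass the test (0.34, SE 1.02, adjusted p = 0.84).

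Among 6 sugar genes, picked for falling or rising at every node, the 4 enzymes of sugar metabolism fell and both SWEET sugar transporters rose, at both nodes. Hexokinase-2 (Vitvi09g00279) had 1.35, 1.85 and 0.95 CPM at BBCH77 against 4.09, 3.61 and 5.07 CPM at BBCH63 of node 5 (-1.62, SE 0.34, adjusted p = 0.0029). A probable sucrose-phosphate synthase 1, the enzyme of sucrose synthesis (Vitvi04g00508), fell to a similar extent (-1.61, SE 0.29, adjusted p = 0.00084). SWEET16 (Vitvi14g00149) had 14.7, 10.7 and 8.48 CPM at BBCH77 and 2.40, 2.72 and 2.91 CPM at BBCH63, with BBCH77 higher in every library (2.08, SE 0.35, adjusted p = 0.00055). SWEET6b (Vitvi14g01783) had 0.676, 0.688 and 0.449 CPM at BBCH77 and 0.0428, 0.0757 and 0.266 CPM at BBCH63 (2.17, SE 0.45, adjusted p = 0.0025). Its rise at node 2 was 4.18, and the difference of -2.004 (SE 0.70) between the nodes did not pass the test (adjusted p = 0.31).

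Of 9 terpenoid and cytochrome P450 genes, likewise picked for their direction, 4 rose and 3 fell at node 5. The 3 falls were genes of the beta-amyrin pathway, which leads to triterpenoids of the cuticle, with the largest in beta-amyrin 28-oxidase (Vitvi18g02103, -1.88). Beta-amyrin synthase 1 (Vitvi09g02008) had 20.6, 25.4 and 30.2 CPM at BBCH77 against 52.4, 61.4 and 96.4 CPM at BBCH63 (-1.46, SE 0.28, adjusted p = 0.0012). The rises included P450 82C4 (Vitvi03g04145, 2.24) and the related CYP82D47 (Vitvi03g00407), with 4.12, 4.08 and 5.85 CPM against 1.05, 0.908 and 1.23 CPM (2.13, SE 0.30, adjusted p = 0.0001). Geraniol 8-hydroxylase (Vitvi02g01537) had 6.005, 2.42 and 5.34 CPM at BBCH77 and 12.7, 7.84 and 6.92 CPM at BBCH63 of node 5, close to 2-fold but under it (-0.997, SE 0.33, adjusted p = 0.035). The node 2 levels were 0.888, 1.35 and 1.86 CPM at BBCH77 and 7.199, 7.41 and 8.77 CPM at BBCH63, a larger fall (-2.50, SE 0.35, adjusted p = 0.00011). The difference of 1.51 (SE 0.47) had an adjusted p of 0.24, and of 0.043 without BBCH77 node 2 replicate 3.

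Of 10 transporters 5 fell and 3 rose at node 5. The largest rise of any gene with a given product was that of an organic cation/carnitine transporter 3-like gene (Vitvi19g01748), with 2.73, 2.84 and 4.71 CPM at BBCH77 against 0.15, 0.151 and 0.164 CPM at BBCH63. Every BBCH77 library stood far above BBCH63 (4.44, SE 0.54, adjusted p = 3.57e-05). In node 2 buds it had 3.18, 8.20 and 4.92 CPM at BBCH77 and 1.10, 0.487 and 0.814 CPM at BBCH63 (2.76, SE 0.44), and the difference of 1.68 (SE 0.72) did not pass the test (adjusted p = 0.43). The largest fall was that of ammonium transporter 3 member 1 (Vitvi07g00065), with 0.635, 0.956 and 0.483 CPM against 2.18, 2.32 and 4.79 CPM (-2.16, SE 0.44, adjusted p = 0.003). A WAT1-related protein (Vitvi02g00287, 2.08) was the next largest rise and the putative transporter arsB (Vitvi02g00301, -1.58) the next largest fall. Without BBCH63 node 5 replicate 3, or without BBCH77 node 5 replicate 3, 3 transporters fell.

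The 11 defence-related proteins held 3 rises and 4 falls. Defensin Ec-AMP-D2, an antimicrobial peptide (Vitvi01g01476), had 275, 194 and 333 CPM at BBCH77 and 74.2, 87.8 and 128 CPM at BBCH63 of node 5 (1.47, SE 0.31, adjusted p = 0.0028). A lectin (Vitvi01g01884, 1.63) and an osmotin-like protein (Vitvi06g00440, 1.15) rose with it. The falls were those of the immune receptor type gene RPM1 (Vitvi01g01851, -2.04), metacaspase-3, a protease linked to cell death (Vitvi16g00275, -1.55), MLO-like protein 4 (Vitvi04g01475, -1.11) and the kinase EDR1 (Vitvi05g00961, -1.11). Among 8 receptor-like and other kinases 6 fell and none rose, led by STY46 (Vitvi04g00146), with 0.984, 1.18 and 0.587 CPM against 3.32, 4.74 and 4.62 CPM (-2.20, SE 0.40, adjusted p = 0.00095), and a senescence-induced receptor-like kinase (Vitvi09g01555, -1.83). Without BBCH63 node 5 replicate 3, 3 of the kinases fell.

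Transcription factors were few, with 2 of 5 rising and 3 falling. Heat stress transcription factor C-1 (Vitvi11g00339) had 69.3, 85.4 and 89.3 CPM at BBCH77 and 38.2, 35.2 and 28.9 CPM at BBCH63, higher in every BBCH77 library (1.25, SE 0.21, adjusted p = 0.00055). The nuclear transcription factor Y subunit B-5-like gene (Vitvi05g00299) had 0.594, 0.218 and 0.483 CPM at BBCH77 and 0.0642, 0.0757 and 0.266 CPM at BBCH63, and was the only DEG of the 189 genes with overlapping stages at node 5 (1.604, SE 0.47, adjusted p = 0.021). Only 1 transcription factor rose without BBCH63 node 5 replicate 1 or 2, or without BBCH77 node 5 replicate 1 or 3, each left out alone. A myb-related gene (Vitvi01g01052) had 32.6, 29.97 and 28.9 CPM against 66.0, 83.8 and 115 CPM (-1.53, SE 0.33, adjusted p = 0.003), and a transcription repressor like gene (Vitvi16g01325) changed by -1.5002 (adjusted p = 0.00031). Among the 30 genes of other functions 23 fell and 5 rose, and among the 28 with no described product 20 fell and 3 rose. Without BBCH63 node 5 replicate 1 there were 3 rises among the other functions, and without BBCH63 node 5 replicate 3 there were 11 falls among genes with no described product. Ornithine decarboxylase, an enzyme of putrescine synthesis (Vitvi18g00156, -2.32), cytosolic sulfotransferase 15 (Vitvi13g00864, -2.14), protein UPSTREAM OF FLC (Vitvi13g01851, -1.84) and cyclin-U4-1 (Vitvi16g00313, -1.58) were among the falls. Methylecgonone reductase (Vitvi05g00018, 1.84) and a probable L-asparaginase 2, which releases ammonium from asparagine (Vitvi18g00730, 1.38), led the rises.

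The 7 genes that the study listed for a difference between nodes 5 and 2 at every stage, ERF020 among them, held no DEG between the stages at node 5 (0 of 7), a count too small to read against the 8.61% of all genes tested. ALP1-like (Vitvi11g00140), named in the study, was no DEG either, with 320, 44.7 and 40.8 CPM at BBCH77 and 39.6, 99.3 and 39.6 CPM at BBCH63, where 1 library of each stage stood above the others (1.19, SE 0.96, adjusted p = 0.40). VvUBC28 (Vitvi19g00744), the reference gene of the study's qPCR, had 106, 119 and 115 CPM at BBCH77 and 125, 172 and 165 CPM at BBCH63 of node 5, without overlap (-0.44, SE 0.14, adjusted p = 0.037). In node 2 buds it had 120 to 139 CPM and 130 to 134 CPM, with a change of -0.03.

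**Figure D2:**
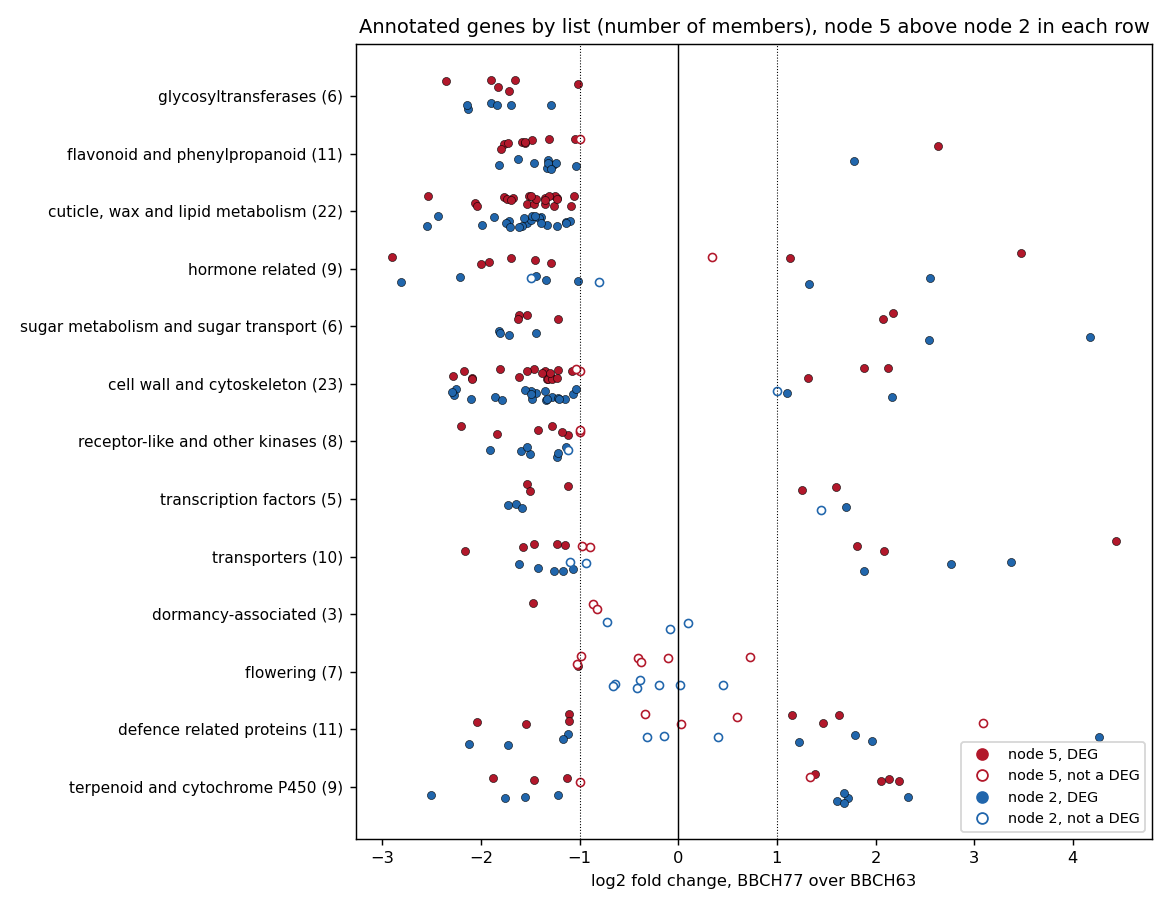
Log2 fold change of BBCH77 over BBCH63 (x axis) of each annotated gene, in rows by list with the number of members, at node 5 (red, upper) and node 2 (blue, lower). Filled points are DEGs and open points are not, and the dotted lines mark 2-fold. The 22 cuticle, wax and lipid genes, all picked in these libraries for falling at every node, lie left of the 2-fold line at both nodes. The flowering genes, which were not picked in this way, stay near or within it.

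At node 2 the same stages differed in 1376 upregulated (5.98%) and 660 downregulated genes (2.87%), together 8.85% of those tested. No library is shared between the comparisons. Of the node 5 DEGs, 658 of the rises and 320 of the falls were DEGs in the same direction at node 2, which is 53.3% and 42.8% of the node 5 lists and 47.8% and 48.5% of the node 2 lists. Across all genes tested, which are not independent of each other, the log2 fold changes of the nodes had a Pearson r of 0.70. Among the node 5 DEGs the median log2 fold change at node 2 was 1.27 for the rises and -1.04 for the falls. Without BBCH77 node 2 replicate 3, 1538 genes rose and 957 fell at node 2. In that fit 622 of the 1405 rises and 366 of the 841 falls of node 5 were shared with node 2. The correlation and the medians are given with this library only.

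This left 575 rises and 425 falls at node 5 that were not DEGs at node 2, but a missing call does not show that a gene did not change. A node 5 DEG was counted as within 2-fold at node 2 where it was no DEG there and the 95% interval of its log2 fold change lay between -1 and 1. This held for 83 rises, 6.73% of the upregulated genes, and 77 falls, 10.3% of the downregulated genes, against 60.7% of all genes tested. Without BBCH77 node 2 replicate 3 it held for 142 rises and 79 falls, of which 58 and 47 were among these 83 and 77. The sets also moved with other libraries, to 48 rises and 47 falls without BBCH63 node 2 replicate 1, 133 rises without BBCH63 node 5 replicate 1, 44 falls without BBCH63 node 5 replicate 2 and 50 falls without BBCH77 node 5 replicate 3. A 1.5-fold limit left 6 rises and 4 falls, and all 27 libraries 22 and 21. The other 492 rises and 348 falls were undecided, with the sign of node 5 in 474 and 304 of them. Of the genes not called at node 2, 104 rises and 75 falls passed the adjusted p there with less than a 2-fold change. An interval within 2-fold does not exclude such a smaller change at node 2.

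**Figure D3:**
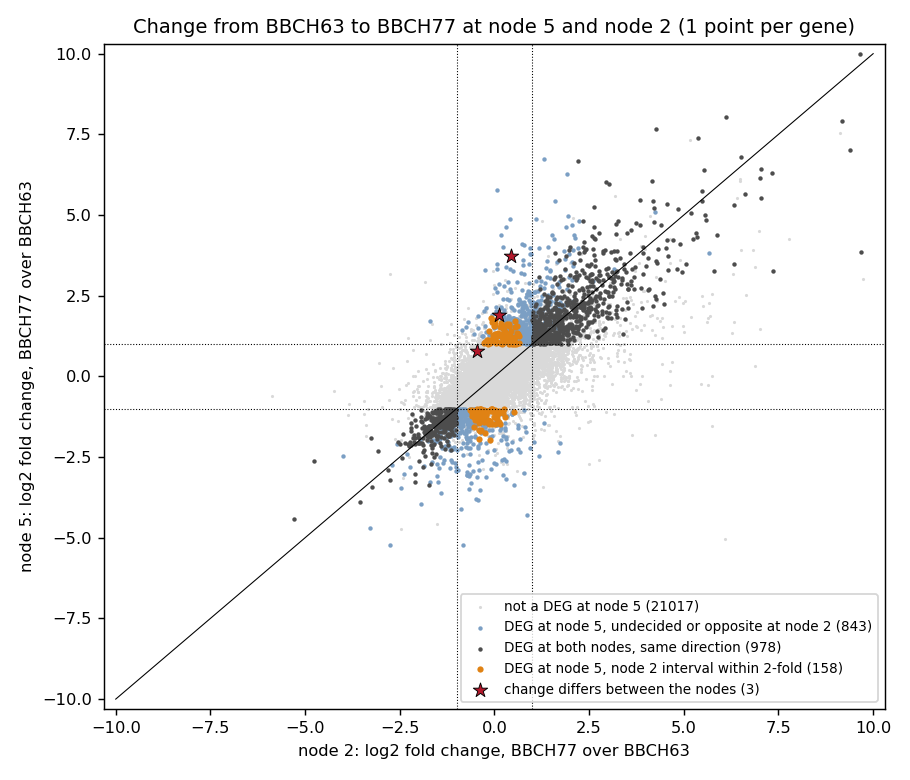
Log2 fold change of BBCH77 over BBCH63 at node 2 (x axis) and node 5 (y axis) for each of the 22999 genes tested, with values beyond 10 drawn at 10. Black points are DEGs with the same direction at both nodes (658 rises and 320 falls), orange points are node 5 DEGs within 2-fold at node 2, and stars mark the 3 genes whose change differed between the nodes, 2 of which belong to the 83 rises. Dotted lines mark 2-fold and the diagonal an equal change.

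The node 5 DEGs that lay within 2-fold at node 2 changed moderately. Their median log2 fold change was 1.21 for the rises and -1.16 for the falls at node 5, and 0.26 and -0.28 at node 2. The rises took 0.837% to 1.05% of the counts at BBCH77 and 0.352% to 0.37% at BBCH63 of node 5, and 1.06% to 1.26% and 0.79% to 1.24% at node 2. VvCO was the only one of the 189 listed genes in this set. Among the 10 largest rises of the set the node 5 change was 1.56 or more and the node 2 change between -0.08 and 0.55. Among the 10 largest falls the node 2 change was between -0.55 and 0.02.

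Vitvi10g00982 led these falls with 4.65, 4.08 and 2.00 CPM at BBCH77 against 15.2, 12.5 and 14.5 CPM at BBCH63 of node 5. At node 2 it had 3.90, 9.71 and 2.66 CPM at BBCH77 and 5.37, 4.36 and 7.80 CPM at BBCH63. The node 5 libraries of BBCH63 were above all others, and the changes were -1.98 (SE 0.40, adjusted p = 0.0019) at node 5 and -0.11 (SE 0.39, adjusted p = 0.87) at node 2. Vitvi06g00666 had 301, 591 and 336 CPM at BBCH77 against 1222, 1994 and 1475 CPM at BBCH63 of node 5, and 594, 612 and 402 CPM against 684, 844 and 617 CPM at node 2. Here too BBCH63 of node 5 stood apart (-1.93, SE 0.26, adjusted p = 7.10e-05, against -0.42, SE 0.25, adjusted p = 0.25, at node 2).

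BBCH63 of node 5 was the extreme group in most of the set. Of the 4 group means of nodes 5 and 2, it was the lowest in 78 of the 83 rises and the highest in 69 of the 77 falls. Its 3 libraries lay below the other 9 in 55 of the rises and above them in 49 of the falls. The median log2 ratio of node 5 to node 2 in the rises was 0.12 at BBCH77 and -0.79 at BBCH63, and in the falls -0.31 at BBCH77 and 0.66 at BBCH63. These levels use the same libraries of node 5 that made the calls and are given as a description.

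Node 10, with 2 libraries per stage in the fit and none shared with node 5, gives values that did not choose the genes. Of all node 5 DEGs, 745 rises (60.4%) and 415 falls (55.6%) were DEGs in the same direction at node 10, where 6.34% of all genes rose and 3.28% fell, and none was called in the opposite direction. With all 27 libraries, which puts back replicate 3 of node 10 at each stage, 1 rise and 0 falls were shared with node 10. The study left these libraries out as outliers, and that of BBCH90 has the same counts as BBCH63 node 2 replicate 2. Of the node 5 DEGs within 2-fold at node 2, 45 of the rises (54.2%) and 36 of the falls (46.8%) were DEGs at node 10. Their log2 fold change there was positive in 81 of the 83 rises, with a median of 1.14, and negative in 74 of the 77 falls, with a median of -1.01.

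**Figure D4:**
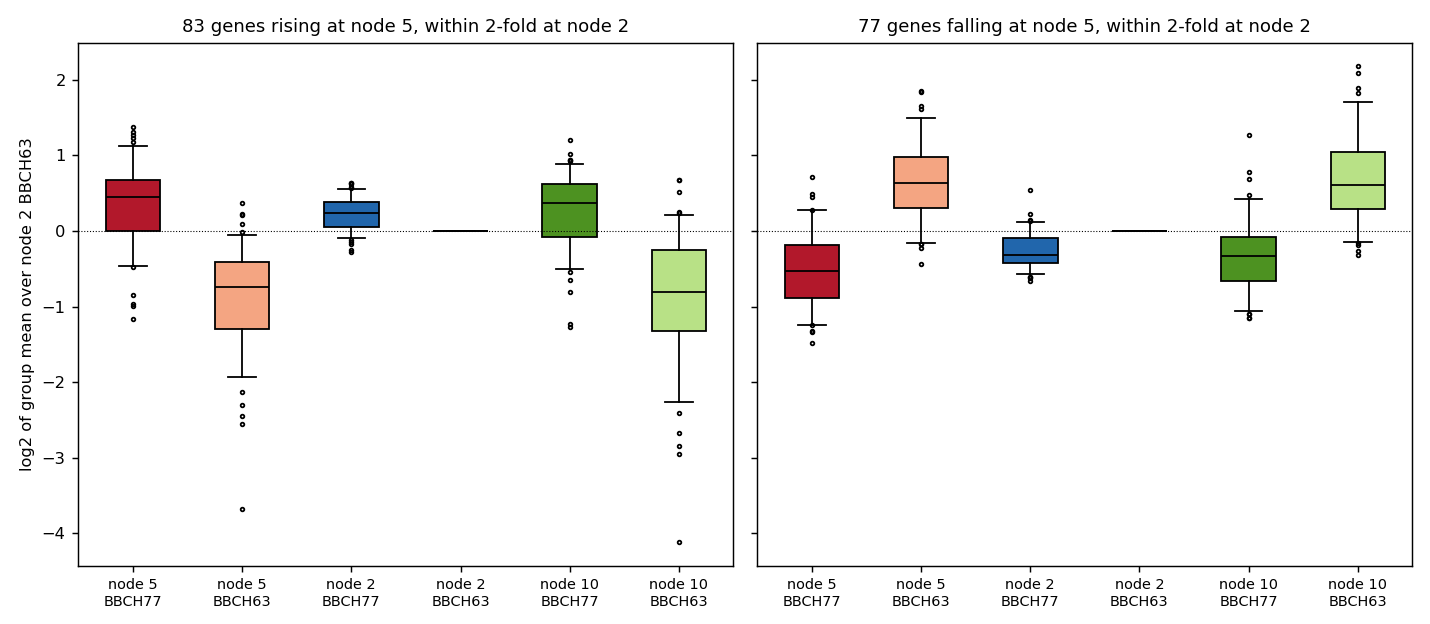
Log2 of the group mean relative to node 2 at BBCH63 (y axis) for the 83 rises (left) and 77 falls (right) of node 5 that lay within 2-fold at node 2, by node and stage (boxes: quartiles and median, whiskers: percentiles 5 to 95). The BBCH63 boxes of node 5 and node 10 lie apart from the others, below them among the rises and above them among the falls.

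A call at node 5 and an interval within 2-fold at node 2 do not test the difference between the nodes. That test, of the node 5 change minus the node 2 change, passed for 3 genes (0.013% of those tested), all with the higher change at node 5, while 2377 genes had an unadjusted p under 0.05. DESeq2 called 47 genes with a higher and 102 with a lower change at node 5, 71 of them among the node 5 DEGs. Without BBCH77 node 2 replicate 3, edgeR called 171 higher (0.744%) and 327 lower (1.42%), the 3 genes included. The number higher was 0 with the 12 libraries of nodes 5 and 2 alone or with all 27, and 1 with DESeq2 size factors. It was also 1 without BBCH63 node 5 replicate 2 or 3, BBCH77 node 5 replicate 1 or 3, or BBCH77 node 2 replicate 1 or 2, each left out alone, and 8 without BBCH77 node 5 replicate 2.

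The largest difference was that of Vitvi09g01493, with 122, 103 and 115 CPM at BBCH77 and 9.54, 11.1 and 4.83 CPM at BBCH63 of node 5. At node 2 it had 141, 162 and 121 CPM at BBCH77 and 121, 114 and 79.8 CPM at BBCH63. Node 5 at BBCH63 was thus the only one of these groups with a low level. The log2 fold change was 3.74 (SE 0.29, adjusted p = 8.51e-07) at node 5 and 0.43 (SE 0.26, adjusted p = 0.25) at node 2, and their difference was 3.31 (SE 0.38, adjusted p = 0.0014). At node 10 the gene had 66.2 and 97.1 CPM at BBCH77 against 6.96 and 4.94 CPM at BBCH63, as at node 5.

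Vitvi09g00064 had 636, 577 and 807 CPM at BBCH77 and 199, 185 and 159 CPM at BBCH63 of node 5, against 809, 703 and 823 CPM and 1051, 533 and 559 CPM at node 2. Again the low values were those of node 5 at BBCH63 (difference 1.77, SE 0.28, adjusted p = 0.045). At node 10 it had 675 and 574 CPM at BBCH77 and 215 and 182 CPM at BBCH63. Vitvi13g04600 was no DEG at either node, since both changes stayed under 2-fold. At BBCH77 it was higher in node 5, with 58.8, 47.8 and 62.4 CPM against 40.3, 28.4 and 29.5 CPM (0.78, adjusted p = 0.00078). In node 2 it was lower, with 59.7, 63.5 and 64.3 CPM against 95.6, 83.1 and 79.3 CPM (-0.46, adjusted p = 0.024). At both nodes the stages did not overlap, and the difference was 1.24 (SE 0.20, adjusted p = 0.045). The products of these 3 genes are not given in the sources used here.

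**Figure D5:**
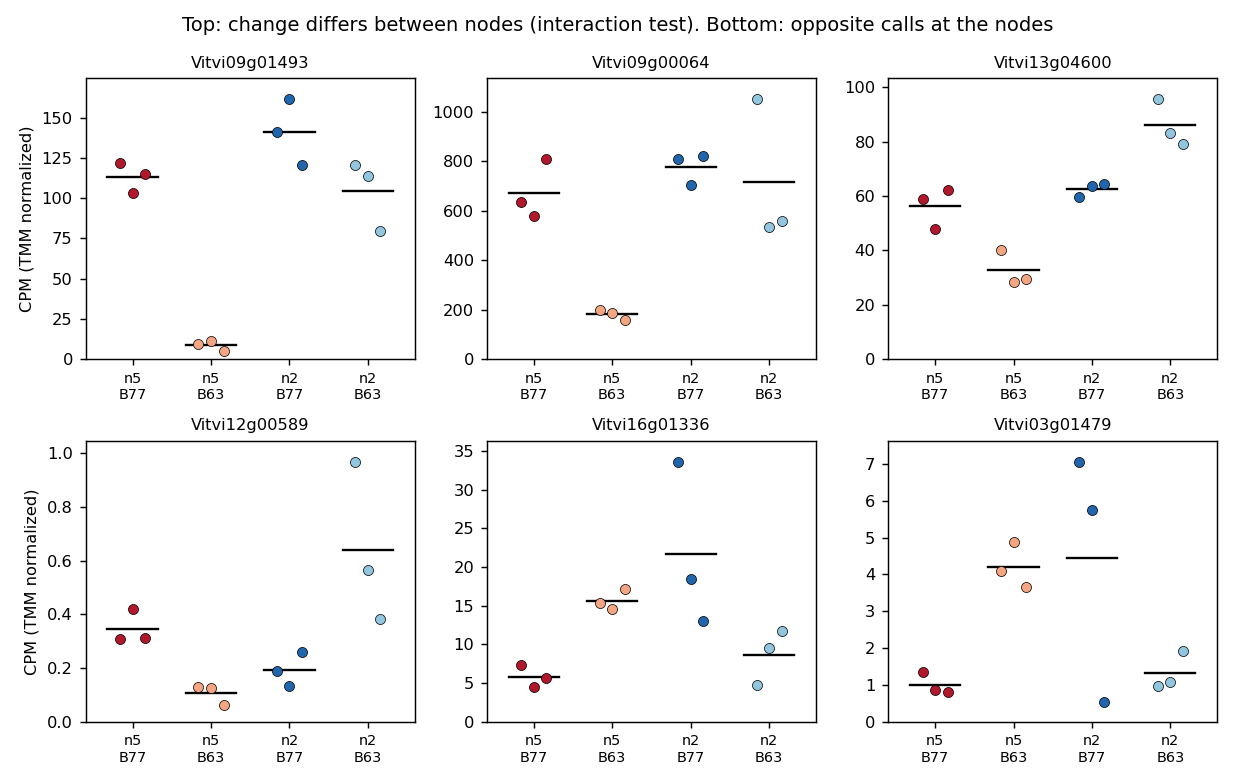
CPM after TMM normalization (y axis, from 0) in each library of node 5 (n5) and node 2 (n2) at BBCH77 (B77) and BBCH63 (B63), with points for replicates and a bar for the mean. The top row holds the 3 genes whose change differed between the nodes, where node 5 at BBCH63 is the lowest group, and the bottom row the 3 genes called in opposite directions, where Vitvi03g01479 has 1 BBCH77 library of node 2 far below the other ones.

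Of the node 5 DEGs, 3 were DEGs with the opposite direction at node 2. Vitvi12g00589 had 0.307, 0.419 and 0.311 CPM at BBCH77 against 0.128, 0.126 and 0.0614 CPM at BBCH63 of node 5, and 0.188, 0.133 and 0.259 CPM against 0.967, 0.564 and 0.381 CPM at node 2. The stages did not overlap at either node (1.71 at node 5 and -1.69 at node 2). All its values lay under 1 CPM, a minimum not applied to genes called in opposite directions. Those of BBCH63 node 5 were near the floor of 3 counts per library. Vitvi16g01336 had the reverse pattern, with 7.34, 4.43 and 5.63 CPM at BBCH77 against 15.3, 14.6 and 17.1 CPM at BBCH63 of node 5, and 33.6, 18.5 and 13 CPM against 4.81, 9.51 and 11.7 CPM at node 2 (-1.43 and 1.32). For both the test of the difference had an adjusted p over the limit, 0.069 and 0.16, and under it without BBCH77 node 2 replicate 3, 0.0082 and 0.014.

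Vitvi03g01479 had 1.35, 0.873 and 0.794 CPM at BBCH77 against 4.09, 4.87 and 3.66 CPM at BBCH63 of node 5 (-2.06, adjusted p = 0.022). At node 2 it had 7.05, 5.76 and 0.542 CPM at BBCH77 and 0.967, 1.077 and 1.93 CPM at BBCH63 (1.74, adjusted p = 0.048). Replicate 3 of BBCH77 lay below every BBCH63 library there and at the level of node 5. The difference of -3.80 (SE 0.86) had an adjusted p of 0.16, and of 0.00064 without that library.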

How the data were processed

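RNA-Seq of latent buds was deposited by the authors as raw counts, whole numbers of reads per gene and library, for 35134 genes. They trimmed adaptors and mapped reads to the PN40024.v4 genome. The submitters' processing notes name FastQC, HISAT2 and HTSeq, and the strand setting of the counting is not given in the sources used here. Counts are not normalized.

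Differential expression was tested with edgeR 4.0.16 under R 4.3.3 on 24 libraries, without replicate 3 of node 10 at each stage, as in the study. Low genes were removed with filterByExpr (minimum count 10). TMM normalization and the quasi-likelihood test with 1 mean per group were used. The adjusted p values are from edgeR with Benjamini-Hochberg adjustment over all 22999 genes tested, unless DESeq2 is named. SE is the log2 fold change over the square root of F. The common dispersion was 0.0483 over all groups, 0.034 with node 5 alone and 0.076 with node 2 alone, so that intervals of node 2 from the shared fit may be too narrow. The steps were tested on simulated data, with 100 genes changed 4-fold and 100 changed 2-fold. The node 5 contrast recovered 89% and 37% of them, with 4 false calls. The difference between the nodes recovered 81% and 25%, with 5 false calls, so that many changes planted at 2-fold were missed. A call needs an estimate of 2-fold or more, so a change planted at exactly 2-fold can miss it by its spread alone. These shares hold for the simulated data and are not carried over to the real libraries.

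Replicates were pools of buds, and p values cover the spread between these pools. Intervals and floors cover only what these libraries show. Members, lists and tests were chosen with earlier results of these data known. Named genes are those the study names or lists, by list, with the largest changes in each list, the 10 largest rises and falls without overlap and at 1 CPM or more, the 10 largest among those within 2-fold at node 2, those passing the test of the difference and those called in opposite directions. Of these, identifiers with no product are printed for the first 2 in each direction. Further members of the lists were named after their values were seen. Products come from the study. No sequences or genome positions are given.

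The alternatives were DESeq2 1.42.0, its size factors in edgeR, no filter, all 27 libraries, 12 or 6 libraries, an adjusted p of 0.01, a 90% interval, a 1.5-fold limit, the replicate number as a block, and each of 12 libraries left out.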

Additional observations from a re-analysis of the deposited data

Results flagged for a closer look

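The change from BBCH63 to BBCH77 differed between node 5 and node 2 by the test of the difference in 3 genes. It was 3.31 higher on the log2 scale at node 5 for Vitvi09g01493, 1.77 higher for Vitvi09g00064 and 1.24 higher for Vitvi13g04600 (adjusted p = 0.0014, 0.045 and 0.045 in edgeR). The calls depended on the fit, since 0 genes with a higher change at node 5 passed with the 12 libraries of nodes 5 and 2 alone or with all 27, 1 passed with DESeq2 size factors, and 1 or 2 passed in 10 of the 12 fits that left out a library.

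In 2 genes every BBCH77 library moved one way from all BBCH63 libraries at node 5 and the opposite way at node 2. Vitvi12g00589 had a log2 fold change of 1.71 at node 5 and -1.69 at node 2, and Vitvi16g01336 of -1.43 and 1.32. All values of Vitvi12g00589 lay under 1 CPM, and those of BBCH63 node 5 were near the floor of 3 counts per library. The test of the difference did not pass for either gene with all libraries of the fit (adjusted p = 0.069 and 0.16 in edgeR), and passed for both without BBCH77 node 2 replicate 3 (adjusted p = 0.0082 and 0.014).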

How the results depend on the processing

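Of 4425 log2 fold changes of the 233 named genes under these alternatives, 0 reversed, 314 lost the call and 64 gained it. Of the 202 called, 172 lost the call with all 27 libraries and 150 kept it in every other one of those run on single genes, which leave out the adjusted p of 0.01, the 90% interval and the 1.5-fold limit. Counts of genes moved more. With an adjusted p under 0.01, node 5 had 785 rises and 492 falls, 380 rises shared with node 2, 1 gene with a higher change at node 5, and 392 rises and 234 falls shared with node 10. With all 27 libraries there were 435 rises and 155 falls, 22 and 21 within 2-fold at node 2, 144 and 25 shared with node 2, 1 and 0 shared with node 10, and 0 genes with a higher change at node 5. This fit holds the outliers of the study, and the same counts under both BBCH63 node 2 and BBCH90 node 10. DESeq2 gave 47 genes with a higher and 102 with a lower change at node 5, its size factors in edgeR 1 higher, and the 12 libraries of nodes 5 and 2 alone 0. The 6 libraries of each node alone gave 51 falls within 2-fold and 327 shared rises. A 1.5-fold limit at node 2 left 6 rises and 4 falls, so these sets depend on the limit. The cause of the other moves was not tested.

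With 1 library left out in turn, node 5 had 938 to 1405 rises and 493 to 841 falls, of which 48 to 142 and 44 to 113 lay within 2-fold at node 2, 501 to 710 and 254 to 366 were shared with node 2, and 597 to 864 and 324 to 477 with node 10. The change was higher at node 5 for 1 to 171 genes and lower for 0 to 327. Sets within 2-fold at node 2 moved by over 1.5 times without BBCH63 node 2 replicate 1 (48 and 47), BBCH63 node 5 replicate 1 (133 rises) and 2 (44 falls), BBCH77 node 5 replicate 3 (50 falls) and BBCH77 node 2 replicate 3 (142 rises). Of these 142 rises and 79 falls, 58 and 47 were in the sets found with all libraries. Without BBCH77 node 5 replicate 2 the change was higher at node 5 for 8 genes and lower for 2.

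The replicate numbers did not pair the samples, with correlations of -0.15, 0.09 and 0.14 at node 5 and 0.18, -0.03 and -0.01 at node 2 between same-numbered libraries. With the replicate block there were 1309 rises and 763 falls at node 5, and 3 genes with a higher change than at node 2.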

Other observations

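For the difference between the nodes, the genes called without BBCH77 node 2 replicate 3 were of several kinds, and some counted under both nodes. Of the 171 with a higher change at node 5, 83 rose at node 5, 41 fell at node 2 and 49 were called at neither node. Of the 327 with a lower change at node 5, 73 fell at node 5, 176 rose at node 2 and 87 were called at neither. Among the listed genes, Dormancy-associated protein-like 1 and geraniol 8-hydroxylase belonged to them.

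Among the listed genes 13 were DEGs at node 2 and not at node 5. Several missed the 2-fold limit at node 5 by little. Leucoanthocyanidin reductase 1 (Vitvi01g00234), an enzyme of catechin synthesis, had a log2 fold change of -0.99 (adjusted p = 0.0071), the receptor-like kinase LECRK3 (Vitvi04g02232) of -0.995 (adjusted p = 0.0055) and the potassium channel KOR2 (Vitvi18g02427) of -0.98 (adjusted p = 0.00059). The acidic endochitinase (Vitvi16g01978), of a family that cleaves chitin, had 3.09 at node 5 (adjusted p = 0.069) and 4.26 at node 2 (adjusted p = 0.012).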
